A study of Mus musculus with 4 samples.

Results

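A set of 10 genes known as markers of thalamic relay neurons was followed in the brain cortex of mice given TCQA or water: Prkcd, Tcf7l2, Rora, Lef1, Zic1, Ntng1, Synpo2, Tnnt1, Amotl1 and Ramp3. All 10 of 10 genes were measured, of 19505 genes with a symbol on the array, and each was read from the transcript cluster (the array's unit for a gene) with the highest mean signal. Rora alone has more than 1 transcript cluster, 3 in all. The transcript clusters were chosen by their mean signal, and the genes as known thalamic markers with earlier results of these data in view, so the differences between groups are given as a description and support nothing further. The animals were male SAMR1 mice, the senescence-resistant line to which senescence-accelerated mice are compared. They were caged singly for 4 months from the age of 7 months. From 11 months of age treated mice were given TCQA (tricaffeoylquinic acid, a polyphenol of plants) orally at 5 mg/kg each day for 1 month, while the control group received MilliQ water. Each group is represented by 2 arrays, called TCQA 1, TCQA 2, water 1 and water 2, and both groups share the line, sex, age and housing. The labels do not say whether an array held 1 mouse or a pool, so the p-values rest on a spread between samples that may be technical.

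Relay neurons sit in the nuclei of the thalamus, below the cortex, and send glutamatergic axons that end mainly in the middle layers of the cortex. Their identity is maintained by transcription factors that include Tcf7l2, an effector of Wnt signalling, together with Lef1, Rora and Zic1 in overlapping sets of nuclei. Their cell bodies are not part of the cortex, but several of the genes are also used by other cells: Rora by cortical layer-specific neurons and astrocytes, Tcf7l2 by maturing oligodendrocytes, Lef1 by brain endothelium, Zic1 by septum and meninges, and Synpo2 by smooth muscle. In a bulk sample, fewer cells of a type and less RNA per cell cannot be told apart.

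The arrays report log2 signals, where a step of 1 is a doubling, after signal space transformation RMA, which equalises the arrays and merges the probes of each cluster. Array medians over named transcript clusters lay between 6.98 and 7.04, and the negative control probe sets had a median of 6.98 and a 95th percentile of 11.06. Against that median, 7 of the 10 genes had a higher mean over the 4 arrays, as did 50.25% of all named transcript clusters. Lef1, Synpo2 and Amotl1 had a lower one, so that the size of their folds is uncertain. Only the mean of Rora lay above the 95th percentile. Of 9 measured markers of cortical excitatory neurons, 8 had a mean above the negative control median. Their mean signal per array was 10.64 in water 1 and between 11.33 and 11.45 on the other arrays. Markers of the striatum were above that median for 6 of 6 genes, so this does not tell the cortex from other regions.

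Most of the 10 genes were lower after TCQA. The median distance between the single arrays of a group was 0.46 in each group, and that between the group means was 0.59. Over all named transcript clusters these medians were 0.24 within water, 0.22 within TCQA and 0.19 between the group means. The TCQA mean was below the water mean for 8 of 10 genes, as it was for 49.5% of all 19572 named transcript clusters, and the median difference of the 10 was -0.59 on the log2 scale against 0.003 over all clusters. The largest was that of Prkcd, which was 3.97-fold lower. Zic1 was 2.17-fold, Tcf7l2 1.82-fold, Tnnt1 1.64-fold and Synpo2 1.64-fold lower, and Amotl1 1.38-fold. Rora, Lef1, Ntng1 and Ramp3 differed by between -0.09 and 0.09. Without TCQA 1 the number lower became 5 of 10, where the median difference over all clusters was 0.002.

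None of the 10 genes passed limma's test with Benjamini-Hochberg adjustment over all named clusters, with adjusted p-values between 0.673 and 0.987, and 0% of all clusters passed. With limma's unadjusted p under 0.05, 3 of the 10 were lower (Prkcd, Tcf7l2 and Synpo2), against 3.89% of all clusters, and 0 were higher, against 3.48%. That count was 1 without TCQA 1, 5 without TCQA 2, 0 without water 1, 4 without water 2 and 0 in an ordinary linear model with no empirical Bayes step. The criteria of the study (over 2-fold and an unadjusted p under 0.05) were met in the lower direction by Prkcd among the 10 and by 0.419% of all clusters.

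**Figure D1:**
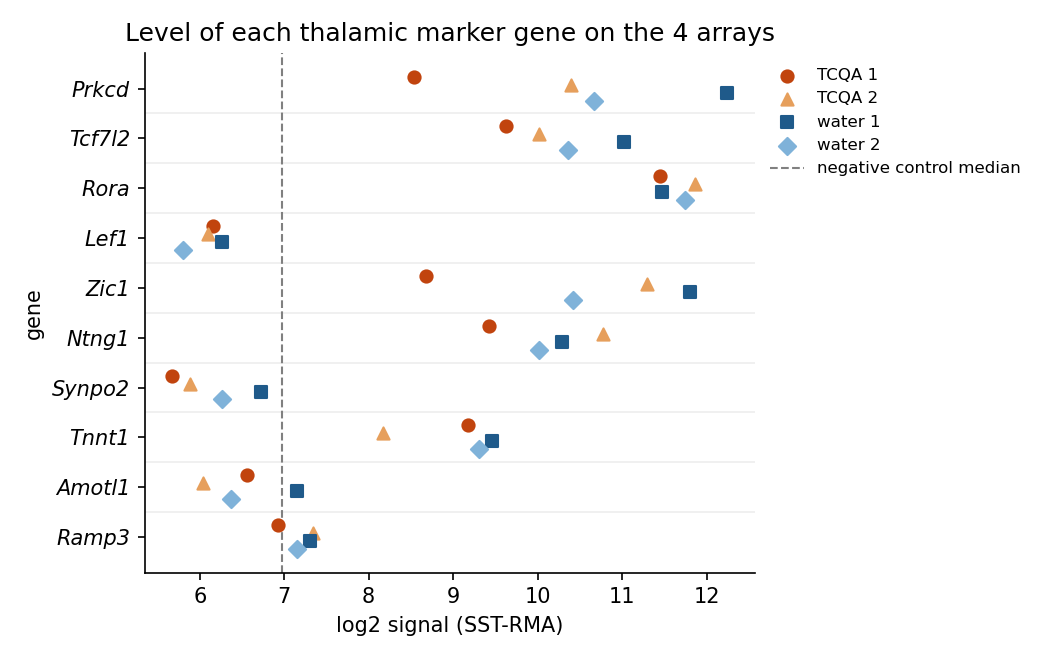
Log2 signal (x axis, log2 scale) of each of the 10 genes (y axis) on the 4 arrays, one symbol per array, with the median of the negative control probe sets at 6.98 as a dashed line. Prkcd runs from 8.54 in TCQA 1 to 12.25 in water 1, while Rora stays between 11.45 and 11.86.

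The transcription factors fell into a pair with wide spread between arrays and a pair with little. Tcf7l2, the HMG-box factor through which beta-catenin acts on its target genes, lay at 9.63 and 10.02 in the TCQA arrays and at 11.02 and 10.36 in the water arrays. Both TCQA values were below both water values, and water 1 was the highest. The difference was -0.86 (SE 0.28; limma, adjusted p = 0.673), and it was -0.67 without TCQA 1 and -0.54 without water 1, where the unadjusted p was no longer under 0.05. Zic1, a zinc finger factor of the developing dorsal brain, lay at 8.68 and 11.30 after TCQA, against 11.80 and 10.41 after water. The groups overlapped, since TCQA 2 stood above water 2, and the distance of 2.62 between the TCQA arrays was wider than the difference of -1.12 between the groups (SE 0.85; limma, adjusted p = 0.761). Without TCQA 1 the difference of Zic1 turned to 0.19, and without TCQA 2 it was -2.43.

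Rora, a nuclear receptor that binds DNA constitutively, lay at 11.45 and 11.86 after TCQA, against 11.47 and 11.75 after water. The groups overlapped and the difference was 0.05 (SE 0.23). Its other transcript clusters differed by 0.14 (SE 0.19) and 0.002 (SE 0.20), so that the choice of cluster did not move the result beyond its error. The sign for Rora changed with quantile normalisation (-0.022), without TCQA 2 (-0.16) and without water 1 (-0.09). Lef1, the relative of Tcf7l2 that shares its DNA-binding domain, lay at 6.16 and 6.10 after TCQA, against 6.27 and 5.81 after water. All 4 values were below the negative control median and the groups overlapped, with a difference of 0.09 (SE 0.22), so that Lef1 was not told apart from background here.

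TCF/LEF factors and Rora bind short DNA motifs, so the promoters of the 10 genes were searched for them. All 10 genes matched RefSeq promoters on GRCm38.p6, and the 250 bases before the outermost start of each were read on both strands. The TCF/LEF motif, CTTTG followed by a pair of bases that are each A or T, occurred in 0 of the 10, against 14.9% of 27025 promoters of the same length. The half-site of Rora, AGGTCA, also occurred in 0 of the 10, against 13.8% of promoters. The core CTTTG on its own, which was added after the full motif had no match, occurred in 6 of the 10 and in 48.8% of promoters. A match is a description of the letters, not a binding site, and these windows leave out distal enhancers. The promoters of the 3 genes with an unadjusted p under 0.05 are shown 5′ to 3′ on the strand of the gene, with CTTTG or its complement CAAAG in capitals. That of Prkcd is chr14:30626209-30626458 (minus strand), that of Tcf7l2 is chr19:55741560-55741809 (plus strand) and that of Synpo2 is chr3:123236150-123236399 (minus strand).
Prkcd: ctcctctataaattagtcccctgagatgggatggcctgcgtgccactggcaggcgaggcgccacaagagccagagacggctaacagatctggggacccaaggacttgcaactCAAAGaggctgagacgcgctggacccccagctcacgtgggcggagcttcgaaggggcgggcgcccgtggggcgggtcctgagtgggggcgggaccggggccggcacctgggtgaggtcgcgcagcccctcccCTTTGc
Tcf7l2: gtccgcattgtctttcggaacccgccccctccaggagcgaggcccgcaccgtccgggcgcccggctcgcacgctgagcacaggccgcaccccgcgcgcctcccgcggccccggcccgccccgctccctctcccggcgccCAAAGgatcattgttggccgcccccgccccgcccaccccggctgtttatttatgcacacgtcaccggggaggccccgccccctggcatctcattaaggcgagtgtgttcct
Synpo2: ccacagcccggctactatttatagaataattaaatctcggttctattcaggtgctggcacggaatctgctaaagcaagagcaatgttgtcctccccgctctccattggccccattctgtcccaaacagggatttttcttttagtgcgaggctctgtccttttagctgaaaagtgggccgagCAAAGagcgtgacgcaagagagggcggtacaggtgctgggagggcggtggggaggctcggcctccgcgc
In Prkcd one core begins 6 bases and another 138 bases before the start. The single core begins 111 bases before the start in Tcf7l2 and 69 bases before it in Synpo2. G and C made up 67.6%, 72.8% and 54.4% of the bases of these windows in the same order.

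Among the signalling and surface proteins, Prkcd differed most. It encodes protein kinase C delta, an isoform that diacylglycerol activates without calcium and that is abundant in relay neurons. Its level was 8.54 and 10.39 in the TCQA arrays and 12.25 and 10.66 in the water arrays. The groups did not overlap, but TCQA 2 and water 2 stood 0.27 apart, and the distances within the groups were 1.86 for TCQA and 1.58 for water. The difference was -1.99 (SE 0.70; limma, adjusted p = 0.673). It was -1.06 without TCQA 1 and -1.20 without water 1, and in both cases the unadjusted p was no longer under 0.05. The prior over control probe sets as well gave an unadjusted p of 0.055 by limma.

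Ntng1 encodes netrin-G1, a lipid-anchored adhesion protein of thalamocortical axons that binds the cortical receptor encoded by Lrrc4c. It lay at 9.42 and 10.78 after TCQA, against 10.28 and 10.02 after water, so that the TCQA arrays enclosed both water arrays. The difference was -0.05 (SE 0.43), and it was 0.63 without TCQA 1 and -0.72 without TCQA 2. Ramp3, which pairs with the calcitonin receptor-like receptor to form an adrenomedullin receptor, lay at 6.93 and 7.35 after TCQA, against 7.31 and 7.15 after water. These values overlapped and were close to the negative control median, with a difference of -0.09 (SE 0.22).

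The cytoskeletal genes had lower means after TCQA and were all highest in water 1, while the lowest array was TCQA 1 for Synpo2 and TCQA 2 for Tnnt1 and Amotl1. Tnnt1, the slow skeletal muscle troponin T that is also transcribed in thalamus, lay at 9.17 and 8.16 after TCQA, against 9.46 and 9.31 after water. The groups did not overlap, but the low value came from TCQA 2 and not from TCQA 1. The difference of Tnnt1 was -0.72 (SE 0.34; limma, adjusted p = 0.686), -1.22 without TCQA 1 and -0.21 without TCQA 2. Synpo2, an actin-binding protein of the synaptopodin family, lay at 5.68 and 5.89 after TCQA, against 6.72 and 6.26 after water. Its groups did not overlap, but all 4 values were below the negative control median. Its difference was -0.71 (SE 0.23; limma, adjusted p = 0.673), and it was -0.61 without TCQA 1 and -0.48 without water 1, where the unadjusted p was no longer under 0.05. Amotl1, a junctional scaffold that binds the co-activator YAP, lay at 6.56 and 6.04 after TCQA, against 7.15 and 6.37 after water. These values overlapped, 3 of 4 were below the negative control median, and the difference of -0.46 (SE 0.32) was -0.07 without water 1.

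**Figure D2:**
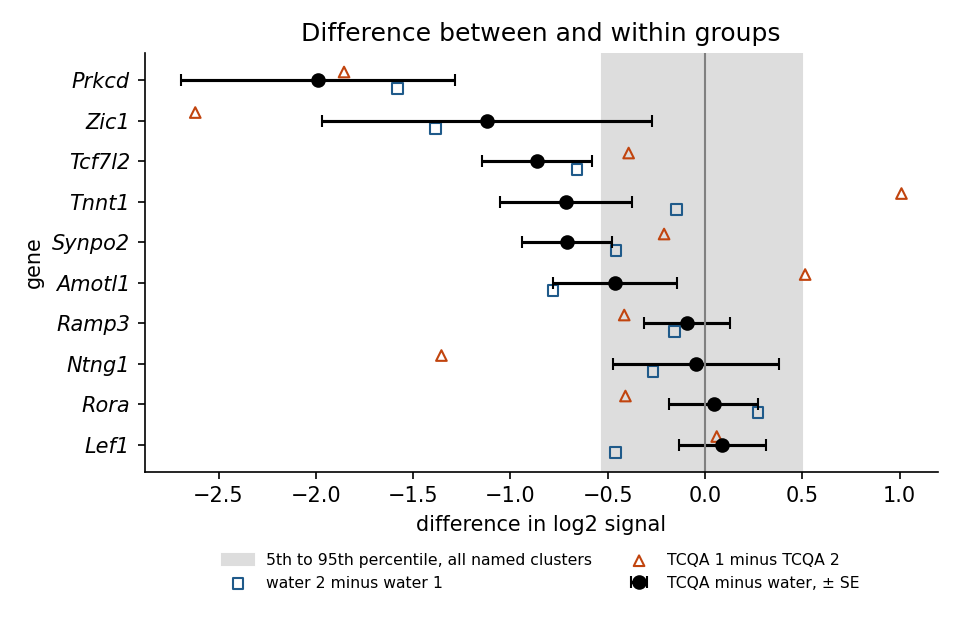
Difference in log2 signal (x axis) for each of the 10 genes (y axis), as TCQA minus water with its standard error (black), and within the groups as TCQA 1 minus TCQA 2 (triangles) and water 2 minus water 1 (squares). The grey band from -0.53 to 0.50 holds the 5th to 95th percentile of the group difference over all named transcript clusters. Prkcd, Zic1, Tcf7l2, Tnnt1 and Synpo2 lie left of the band, and for Prkcd and Zic1 both within-group differences lie there too.

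A clean separation of the groups was seen for 4 of the 10 genes, Prkcd, Tcf7l2, Synpo2 and Tnnt1, whose TCQA values were both below both water values, against 19.2% of all clusters. In the opposite direction the number was 0, against 19.9% of all clusters. With 1 array left out, a single array stands for a group and more clusters separate. The number with the TCQA values below was then 5 of 10 without TCQA 1 and 8 of 10 without TCQA 2, against 35.1% and 33% of all clusters. It was 4 of 10 without water 1 and 7 of 10 without water 2, against 33.5% and 35.8%. For 7 of the 10 genes the larger of the within-group distances exceeded the difference between the groups. The share of all clusters that do so was not counted. Over all clusters the median distances were 0.24 within water, 0.22 within TCQA and 0.19 between the groups. These medians do not give that share, so whether the 7 of 10 is particular to these genes cannot be told.

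The pattern over the single arrays was that water 1 was high and TCQA 1 low. Water 1 was the highest array for 7 of 10 genes, against 26.9% of all clusters, and TCQA 1 was the lowest for 7 of 10, against 22.2%. Relative to each gene's mean over the 4 arrays, the median of the 10 genes was -0.36 in TCQA 1, -0.03 in TCQA 2, 0.51 in water 1 and 0.04 in water 2. Between the outer arrays, a pair chosen after the values were seen, water 1 exceeded TCQA 1 for 10 of 10 genes with a median of 0.73, and for 50.1% of all clusters. Between the remaining arrays, water 2 exceeded TCQA 2 for 5 of 10 genes with a median of 0.08, and for 49.1% of all clusters. Water 1 also exceeded water 2 for 9 of 10 genes, where 50.8% of all clusters did, with a median of 0.46. The median difference of -0.59 between the groups was nearer to 0 without TCQA 1 (-0.27) or water 1 (-0.26), and it was -0.51 without TCQA 2 and -0.82 without water 2.

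**Figure D3:**
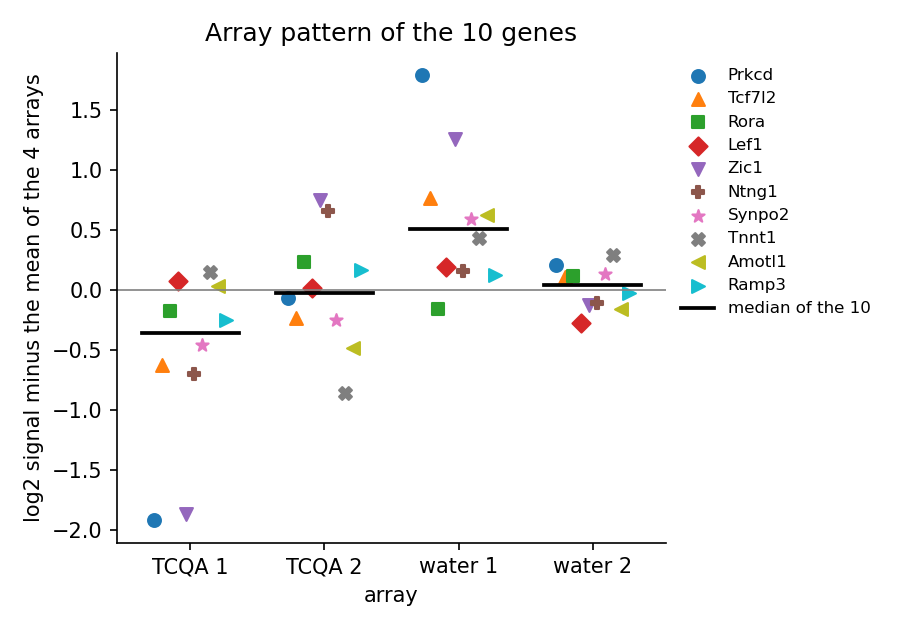
Log2 signal of each of the 10 genes minus that gene's mean over the 4 arrays (y axis), by array (x axis), with the median of the 10 genes as a black bar. The bar stands at -0.36 in TCQA 1 and at 0.51 in water 1, with TCQA 2 and water 2 close to 0, and Prkcd and Zic1 span the widest range.

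Genes with an array pattern like that of Prkcd were sought by the Euclidean distance over the 4 arrays between mean-centred log2 signals, among 9800 genes outside the set of 10 with a mean above the negative control median. The 6 nearest of these were Btbd35f18 at a distance of 1.02, Btbd35f20 at 1.41, Tmem72 at 1.46, Btbd35f9 at 1.51, Btbd35f19 at 1.60 and Gm10406 at 1.61. The Btbd35f genes are near-identical copies, so their probes cannot be assigned with certainty. Of the 10 genes, Zic1 was nearest to Prkcd at 1.03, followed by Tcf7l2 at 1.66 and Synpo2 at 1.90, and the others lay between 2.18 and 2.63.

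Other genes of thalamic projection neurons were divided in direction. Of 16 listed and 16 measured, 7 were lower and 9 higher after TCQA, with a median difference of 0.03. Both TCQA values lay below both water values for 4 of the 16, against 19.2% of all clusters. They lay above both for 2, against 19.9%. A mean above the negative control median was found for 13 of the 16. How much of these signals in cortical RNA came from thalamic cells was not tested, so the list median does not describe those cells alone. With limma's unadjusted p under 0.05, 1 was lower and 0 higher, and 0 passed after adjustment. That gene was Shox2, a homeobox factor, at 4.83 and 5.03 after TCQA and 6.35 and 5.71 after water, all below the negative control median, with a difference of -1.11 (SE 0.26). Plekhg1 lay at 9.06 and 9.17 against 10.12 and 9.39, again with water 1 the highest, and Lhx9, a LIM homeobox factor, differed by -0.46 with all values below the negative control median. Slc17a6, the vesicular glutamate transporter of relay neurons, named after its values were seen, lay at 9.81 and 9.83 after TCQA, against 9.89 and 9.26 after water, a difference of 0.24 (SE 0.25). The mean signal of the whole list was 8.92 in TCQA 1 and 9.24 in TCQA 2, 9.30 in water 1, and between those of the TCQA arrays in water 2. These means include Calb2, which is also on the olfactory bulb list used below. It lay at 7.91 in TCQA 1 and 11.27 in TCQA 2, against 9.47 and 8.06 after water.

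The neighbouring reticular nucleus and habenula were covered by shorter lists. Of 5 measured reticular genes (6 listed) 4 were lower, with a median of -0.54 that was -0.07 without water 1. Ecel1, a membrane peptidase and the 1 gene there with an unadjusted p under 0.05, lay at 7.70 and 7.19 after TCQA, against 10.02 and 8.06 after water. Six3 and Isl1, homeobox factors, differed by -0.54 and -0.72, and both were highest in water 1. The striatal markers below were highest in water 1 for 6 of 6 genes. Whether the values of the reticular list come from that nucleus or from other cells was not tested. Of 8 measured habenular genes 5 were lower, with a median of -0.16, and 7 had a mean below the negative control median. Among them Pou4f1, a POU factor, differed by 1.14 and Chrna3, a nicotinic receptor subunit, by -0.84, both past an unadjusted p of 0.05 and at an adjusted p = 0.673 in limma, while Nhlh2 differed by -0.42.

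The molecular partners of Tcf7l2, Lef1 and Prkcd were also divided in direction. For Tcf7l2 and Lef1, 8 of 10 listed TCF/LEF family members and co-factors were measured, 5 lower and 3 higher with a median of -0.10. Tcf7l1, a family member that mostly represses, differed by -0.56 with an unadjusted p under 0.05, the 1 such gene of the list. Its mean of 6.68 was below the negative control median, as were 3 of its 4 values. The co-factors Pygo2 and Bcl9l differed by 0.42 and -0.43. Of 9 listed genes that beta-catenin induces 7 were measured, 3 lower and 4 higher, and 0 had an unadjusted p under 0.05 or an adjusted one by limma. Their smallest p-values belonged to Apcdd1, Sp5 and Lgr5, which differed by 0.54, -0.36 and 1.01. Sp5 lay below the negative control median on all 4 arrays, and Lgr5 stood at 9.36 in TCQA 2 and between 6.88 and 7.58 elsewhere. For Prkcd, 7 of 8 listed kinase isoforms were measured, 4 lower and 3 higher with 0 at an unadjusted p under 0.05. They were led by Prkcq (-0.50), Prkce (-0.40) and Prkca (0.36).

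Relatives of Rora and Zic1 were measured for 4 of 6 listed genes, 1 lower and 3 higher. Rorb, a receptor of layer-specific cortical neurons, was higher by 0.54 with an unadjusted p under 0.05, and Zic2 (-0.31) and Zic4 (0.15) lay below the negative control median. For Ntng1, 3 of 4 listed genes were measured with 0 at an unadjusted p under 0.05, and its cortical ligand Lrrc4c lay between 13.99 and 14.15 on all arrays, a difference of 0.05 (SE 0.19). The related Lrrc4 and Lrrc4b differed by -0.25 and 0.14. For Tnnt1 and Synpo2, 9 of 9 troponin and synaptopodin genes were measured, 6 lower with 0 at an unadjusted p under 0.05, and 7 had a mean below the negative control median. Tnnc2, Tnni2 and Tnni1, troponin subunits of skeletal muscle, differed by -0.48, -0.51 and -0.29. For Amotl1, 8 of 8 angiomotin and Hippo pathway genes were measured, 6 lower with 0 at an unadjusted p under 0.05. They were led by Amot (-0.39), Wwtr1 (-0.25) and Tead1 (-0.23), and Wwtr1 lay below the negative control median on all 4 arrays.

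For Ramp3, 8 of 9 listed partners were measured, 7 higher and 1 lower, with a median of 0.40. Of these 8 genes 6 had a mean below the negative control median, so that the size of their differences is uncertain. Adm, which encodes the ligand adrenomedullin, lay at 6.53 and 6.47 after TCQA, against 5.80 and 5.61 after water, a difference of 0.79 (SE 0.19; limma, adjusted p = 0.642). Iapp, the ligand amylin, differed by 0.54. These 2 of the 8 genes were higher with an unadjusted p under 0.05, against 3.48% of all clusters. Both lay below the negative control median on all arrays. Calcrl, the receptor that Ramp3 accompanies, differed by 0.35 (SE 0.20).

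Markers of other cells and regions also set the arrays apart. Striatal markers were lower after TCQA for 6 of 6 measured genes (median -0.68) and highest in water 1 for 6 of 6, with a mean signal of 13.58 and 13.05 in the TCQA arrays and 14.61 and 13.38 in the water arrays. Oligodendrocyte markers, of interest because Tcf7l2 marks that lineage too, were lower for 7 of 7 (median -0.40) and highest in water 1 for 7 of 7, with means of 11.28 and 11.19 against 11.93 and 11.30. Choroid plexus markers were lower for 7 of 8 (median -1.49), with means of 7.77 and 7.03 against 9.22 and 8.53, and Ttr, Folr1 and Kcnj13 differed by -4.06, -2.01 and -1.93. Cortical excitatory markers were higher for 9 of 9 (median 0.29) and lower in water 1 than in water 2 for 8 of 9. Without water 1 the medians were -0.11 for striatum, -0.10 for oligodendrocytes, -0.87 for choroid plexus and -0.04 for cortical excitatory neurons. Of the defining markers none of the striatal and oligodendrocyte genes, 3 choroid plexus genes and 1 cortical gene had a mean below the negative control median. The part of these tissues in the differences of the 10 genes was not tested.

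Of the cells that use single genes of the set, endothelial markers (Lef1) were higher after TCQA for 8 of 8 genes, with a median of 0.35 and Slc2a1, Flt1 and Abcb1a at 0.77, 0.67 and 0.74. Smooth muscle and pericyte markers (Synpo2) were higher for 7 of 8 with a median of 0.28, led by Myh11 (0.63), Acta2 (0.62) and Tagln (0.65). Meningeal markers (Zic1) were higher for 6 of 7 with a median of 0.34, led by Slc22a6 (0.63), Col1a1 (0.38) and Islr (0.68). The mean endothelial signal was 9.47 and 9.57 in the TCQA arrays and at most 9.20 in the water arrays. For smooth muscle it was 6.49 and 6.39 against 6.16 and 6.12, and for meninges 7.06 and 7.55 against 7.01 and 6.98. A mean below the negative control median was found for 1 of 8 endothelial, 5 of 8 smooth muscle and pericyte and 4 of 7 meningeal markers. Myh11, Tagln and Col1a1 were below it on all 4 arrays. The part of these cells in the values of Lef1, Synpo2 and Zic1 was not tested. Hippocampal markers were lower for 3 of 6 (median -0.05), with 4 of 6 means below the negative control median. Of 6 measured hypothalamic markers 4 were lower (median -0.13), with all means below the negative control median. Olfactory bulb markers were higher for 5 of 5 (median 0.89), and 3 of them had a mean below the negative control median. The list means were 8.54 in TCQA 2 and between 5.70 and 6.33 on the other arrays. TCQA 2, which stands apart there, was the lowest array for 2 of the 10 genes (Tnnt1 and Amotl1) and the highest for 3 (Rora, Ntng1 and Ramp3), and Zic1 stood 2.62 higher there than in TCQA 1. The part of that tissue in these values was not tested.

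**Figure D4:**
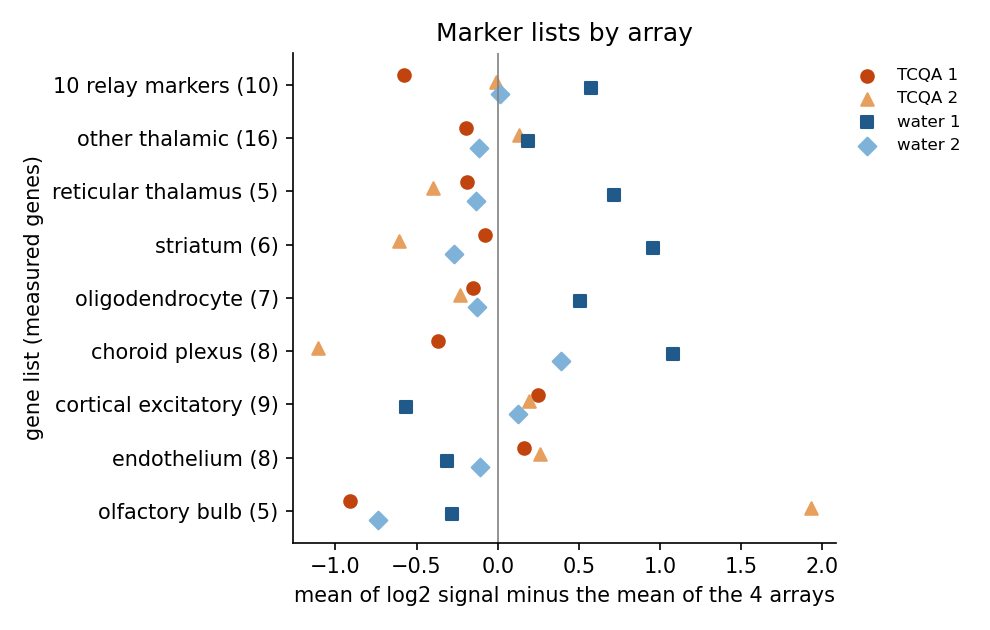
Mean over each gene list of the log2 signal minus each gene's mean over the 4 arrays (x axis), for the 10 relay neuron markers and for markers of other cells and regions (y axis, measured genes in brackets), one symbol per array. Water 1 is the highest array for the 10 markers (0.57), other thalamic genes (0.19), reticular thalamus (0.72), striatum (0.96), oligodendrocytes (0.51) and choroid plexus (1.08). It is the lowest for cortical excitatory neurons (-0.57) and endothelium (-0.31). TCQA 1 is the lowest for the 10 markers (-0.58), other thalamic genes (-0.20) and olfactory bulb (-0.91).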

How the data were processed

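Cortical RNA of 4 samples was read on Clariom S mouse arrays. The deposited log2 signals were made by the authors with SST-RMA in Transcriptome Analysis Console 4.0.2, per the labels' series text. RMA and limma appear in the submitters' processing notes, and the build of the array's annotation is not given in the sources. RMA values carry no depth, and having 4 arrays limits the precision. The table holds 28846 rows, of which 19572 carry 1 gene symbol in the platform annotation, several 0 and none 9274 (6640 of these are control probe sets). All 19572 were matched to RefSeq by gene identifier and tested.

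Groups came from the sample titles. limma 3.58.1 in R 4.3.3 (lmFit and eBayes, 2-sided) was fitted over all 19572 with Benjamini-Hochberg adjustment. The code was run on arrays simulated from the fitted variance prior with independent noise. That run checks the code only and says nothing on the p-values of these data. The median standard error was 0.22. The members and lists were chosen with earlier results of these data known. Named were the 10 genes, up to 3 genes with the smallest p of each list, and the 6 nearest patterns to Prkcd. Slc17a6 and Calb2 were named after their values were seen. List genes not measured under their symbols were not analysed here. Alternatives covered the prior, weights, normalisation, centring, dim-signal filters, leaving out each array and a replicate block. Promoters came from RefSeq (GRCm38.p6). The plots used Python 3.11.15 with matplotlib 3.10.9.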

Additional observations from a re-analysis of the deposited data

How the results depend on the processing

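The number of clusters past the study's criteria was 130, and it became 55 with no empirical Bayes step, 44 in the upper 50 percent of mean signal, where 9786 clusters were tested, and 44 above the negative control median. Leaving out 1 array gave between 218 and 428 such clusters, a median difference of the 10 genes between -0.82 and -0.26, and between 4 and 8 genes with both TCQA values below both water values. The last of these was chosen after seeing the data, and a group left with 1 array is assumed to vary like the other group. Among the 124 values of single genes under an alternative, 100 kept their direction and side of an unadjusted p of 0.05, 10 lost that p, 6 gained it and 8 changed sign. The signs changed for Rora with quantile normalisation (-0.022), without TCQA 2 (-0.16) and without water 1 (-0.09), for Zic1 (0.19), Ntng1 (0.63) and Ramp3 (0.11) without TCQA 1, for Ntng1 without water 1 (0.09) and for Lef1 without water 2 (-0.14). Over the arrays left out, the difference ran from -0.16 to 0.25 for Rora, -0.14 to 0.32 for Lef1, -2.43 to 0.19 for Zic1, -0.72 to 0.63 for Ntng1 and -0.30 to 0.11 for Ramp3. The cause of these changes was not tested. Same-numbered arrays did not deviate together (r = -0.003 across genes). With 2 arrays per group this cannot tell whether the numbers pair the samples. With the replicate number as a block, 130 clusters again passed, the median difference stayed at -0.59, and Tnnt1 gained an unadjusted p under 0.05. Without TCQA 1, 2 clusters passed limma's adjusted threshold, and under the other alternatives 0 did, with between 898 and 1735 at an unadjusted p under 0.05. The dim-signal filters left 7 of the 10 genes, with a median of -0.72.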
